A study of Mus musculus with 2 samples.

Results

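The genes described here are the oncofetal genes of the LIN28, HMGA and IGF2BP families, 7 in all (*Hmga1*, *Hmga2*, *Lin28a*, *Lin28b*, *Igf2bp1*, *Igf2bp2* and *Igf2bp3*), followed in RNA-sequencing of mouse *Sox9*GFPHi chondrospheres. They were chosen by name, because *Hmga2* differed strongly between the replicate libraries and the other genes are known to be regulated by the microRNA let-7. Of the 7 genes, 5 have values among the 23628 genes of the deposited table, whereas the levels of *Lin28a* and *Lin28b* were not analysed here and only their 3′ UTRs are described. Chondrospheres are colonies grown from single cells in methylcellulose, a viscous medium that keeps clones apart. The cells came from femoral heads of *Sox9* IRES-EGFP reporter pups at postnatal day 7, in which GFP marks cells that transcribe *Sox9*, the master transcription factor of cartilage. They were sorted for high GFP and for lack of CD31, Ter119 and CD45, which mark endothelial, erythroid and white blood cells, and were then cultured in low oxygen in serum medium with FGF2, BMP4, IGF1, LIF and TGF-β1. Both libraries carry the single label MC-SOX9-GFPhi, numbered replicate 1 and replicate 2, so there is 1 condition, no control group and no test between groups. According to the study's methods each pup was harvested as a separate biological replicate, but how many colonies or founder cells went into a library is not stated. The difference between the libraries chose *Hmga2* for study, and it is therefore given as a description for all genes below.

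These families are known as a fetal growth circuit. LIN28 proteins bind the precursors of let-7 and block their maturation, and let-7 in turn binds the 3′ untranslated regions (3′ UTRs) of the mRNAs for LIN28, HMGA2 and the IGF2BP proteins and lowers them as tissues mature. HMGA proteins bind AT-rich DNA through short AT-hook motifs and bend chromatin, and loss of *Hmga2* gives the pygmy mouse. IGF2BP proteins bind mRNAs such as those of *Igf2*, *Myc* and *Actb* and govern their stability and localization.

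The sequences that link the genes are the let-7 seed and its matches in their 3′ UTRs. The mature microRNAs below, from RefSeq on GRCm38.p6, are written with the seed (bases 2 to 8) in capitals, and show that the family shares a seed although the other bases vary. The seed of let-7a was carried by 10 mature let-7 and miR-98 sequences of that source, and let-7j carried another.
let-7a-5p: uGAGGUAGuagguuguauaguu
let-7d-5p: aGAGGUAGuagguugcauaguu
miR-98-5p: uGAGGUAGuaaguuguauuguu
let-7j: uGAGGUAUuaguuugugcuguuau

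The complement of the shared seed is CTACCTC, and it was searched on the transcript strand of annotated 3′ UTRs (GENCODE M21, GRCm38). All 7 genes held at least 1 such match, against 9.50% of the 21027 genes with an annotated 3′ UTR. Their 3′ UTRs, from 1183 bases in *Hmga1* to 6337 bases in *Igf2bp1*, were longer than the median of 1014 bases, and a longer region holds more matches of any kind. *Hmga2*, *Igf2bp1* and *Lin28b* each held 4 matches, a number reached by 0.0618% of genes, *Lin28a* held 2, and *Hmga1*, *Igf2bp2* and *Igf2bp3* held 1 each. The longer form CTACCTCA, which contains the shorter motif, was found in 6 of the 7 genes, all but *Hmga1*, and in 3.24% of all genes. Regulation by let-7 was part of the choice of the genes, so matches were likely in advance and nothing is read from these shares. The sites of the measured genes are printed below over 22 bases, 5′ to 3′ on the transcript, with the match in capitals. All but that of *Hmga1*, which recurs letter for letter in its copy *Hmga1b* at chr11:120763999-120764020 (plus strand), lie on the minus strand. A match is a description of the letters and not evidence that let-7 binds there in these cells.
*Hmga2* site 1, chr10:120364224-120364245: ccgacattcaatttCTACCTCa
*Hmga2* site 2, chr10:120362987-120363008: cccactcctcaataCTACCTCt
*Hmga2* site 3, chr10:120362549-120362570: tgatttgcaaggaaCTACCTCc
*Hmga2* site 4, chr10:120361691-120361712: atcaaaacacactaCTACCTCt
*Hmga1* site 1, chr17:27563278-27563299: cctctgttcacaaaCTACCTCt
*Igf2bp2* site 1, chr16:22059473-22059494: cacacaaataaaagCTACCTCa
*Igf2bp3* site 1, chr6:49086787-49086808: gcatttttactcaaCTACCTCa
*Igf2bp1* site 1, chr11:95961778-95961799: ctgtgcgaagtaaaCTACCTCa
*Igf2bp1* site 2, chr11:95959357-95959378: agcagtgctattaaCTACCTCa
*Igf2bp1* site 3, chr11:95958763-95958784: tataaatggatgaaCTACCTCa
*Igf2bp1* site 4, chr11:95958140-95958161: cttttggttttaatCTACCTCt

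Levels are counts-per-million (CPM), and the steps between low values imply about 43300000 assigned reads for replicate 1 and 42200000 for replicate 2. Depth therefore differed little between the libraries, and 3 reads correspond to 0.0693 and 0.0712 CPM. Differences are log2 ratios of replicate 2 to replicate 1 with 0.1 CPM added to both values, which understates the change of low genes. Over the 12631 genes averaging 1 CPM or more, log2 ratios had a median of 0.30 (1.23-fold) and an SD of 0.83. The 10 highest genes took 43.4% of replicate 1 and 34.7% of replicate 2, and the median was 0.02 when the libraries were instead scaled by a trimmed mean of ratios. Beyond 2-fold, 1435 genes were higher in replicate 2 and 468 lower, that is 75.4% of these genes higher, against 57.1% under the trimmed-mean scaling. Defining chondrocyte genes were abundant in both libraries (*Col2a1* at 148953 and 100682 CPM, *Sox9* at 252 and 279 CPM), while the 5 endothelial markers *Pecam1*, *Cdh5*, *Kdr*, *Tek* and *Emcn* summed to 0.231 and 0.166 CPM, with 4 of them at 0 in both libraries.

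All 5 measured genes were higher in replicate 2 by more than 2-fold and none was lower. Over all genes 11.4% were higher by as much, 3.71% lower and 15.1% either, and because this contrast chose the genes nothing is read from their count. The HMGA genes had larger differences than the IGF2BP genes, and for the same reason nothing is read from that order. *Igf2bp1* had less than 1 CPM in replicate 1 and entered the 12631 genes only through its level in replicate 2.

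**Figure D1:**
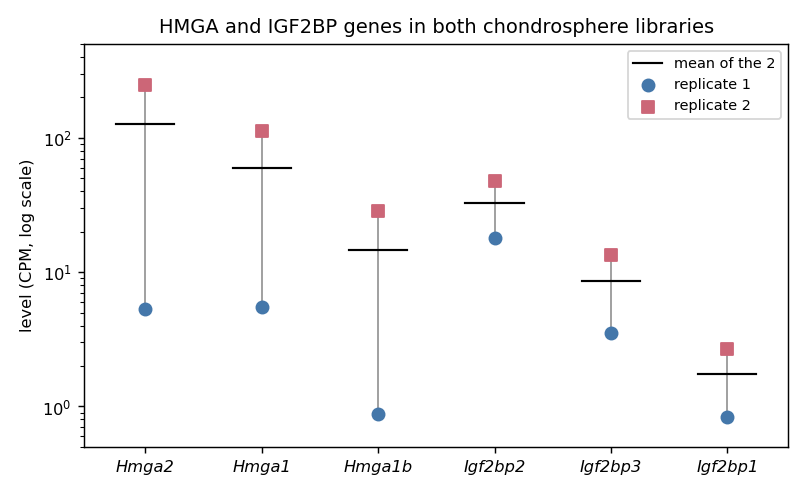
Level in CPM (log axis) of the HMGA and IGF2BP genes in replicate 1 (circles) and replicate 2 (squares), with the mean of both as a bar. *Hmga2* ran from 5.35 to 247 CPM, and every gene shown, including the *Hmga1* copy *Hmga1b*, was higher in replicate 2.

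*Hmga2*, which encodes the AT-hook protein most tied to fetal growth and lies on chromosome 10 from 120361275 to 120476469 (GRCm38, minus strand), had 5.35 CPM in replicate 1 against 247 CPM in replicate 2. Replicate 1 was low and replicate 2 high, a 46.1-fold difference with a 95% interval of 40.4 to 52.6 that covers counting error only. The implied reads were 232 and 10398, so read depth did not limit this value. Its log2 ratio of 5.50 ranked 8 among the 12631 genes. The mean was 126 ± 171 CPM (SD, n = 2), an SD larger than the mean, so these libraries give no settled level for the gene.

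The annotated antisense genes at the locus had low values. Whether counting used the strand is not given, so antisense reads may have been counted to *Hmga2*. Both annotated genes that overlap *Hmga2* on the opposite strand were near or at 0, with *1700006J14Rik* listed at 0 in replicate 1 and at 0.216 CPM in replicate 2, and *9230105E05Rik* listed at 0 in both. Only 0.877% of the 50-base windows of the longest *Hmga2* coding transcript were found in transcripts of another gene, and the reads were 50 bases long.

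*Hmga1*, the paralogue with the same AT-hook architecture, lies on chromosome 17 from 27556497 to 27563674 (plus strand) and had 5.51 CPM in replicate 1 against 113 CPM in replicate 2. This is a 20.6-fold difference (95% interval 18.02 to 23.5, counting error only), and its log2 ratio of 4.34 ranked 51. *Hmga1* shares 69.1% of its 50-base windows with *Hmga1b*, a near-identical copy on chromosome 11 from 120762794 to 120764419, so reads of the pair can be divided between them in counting. *Hmga1b* had 0.886 CPM in replicate 1 against 28.5 CPM in replicate 2. Summed over both genes the level was 6.40 and 142 CPM, a 22.2-fold difference, and *Hmga1b* held 13.8% of the sum in replicate 1 and 20.1% in replicate 2. In turn 89.0% of the 50-base windows of *Hmga1b* occur in *Hmga1*, so the values of the pair are not separate observations. The difference was seen in their sum, and how much of it belongs to *Hmga1b* was not tested. The protein-coding gene *AI413582*, which overlaps *Hmga1* on the opposite strand, had 6.10 and 10.2 CPM.

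The balance of the HMGA genes also differed between the libraries. Within a library, the ratio of *Hmga2* to *Hmga1* does not depend on scaling, and it was 0.971 in replicate 1 and 2.18 in replicate 2. Against *Hmga1* and *Hmga1b* together it was 0.836 and 1.74.

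The IGF2BP genes, which encode RNA-binding proteins with paired RNA recognition and KH domains, were higher in replicate 2 by smaller factors. *Igf2bp2*, the family member known from adult tissues, lies on chromosome 16 from 22059009 to 22163299 and had 18.1 CPM in replicate 1 against 47.6 CPM in replicate 2. That is 2.63-fold (95% interval 2.42 to 2.86, counting error only), a log2 ratio of 1.39. *Igf2bp3*, on chromosome 6 from 49085223 to 49214957, had 3.53 and 13.5 CPM, 3.83-fold apart (95% interval 3.20 to 4.61) with a log2 ratio of 1.91. *Igf2bp1*, on chromosome 11 from 95957163 to 96005940, was the lowest, with 0.832 and 2.68 CPM. Its 36 and 113 implied reads give a 3.22-fold difference with a wide interval of 2.20 to 4.83. The means were 32.9 ± 20.9 CPM for *Igf2bp2*, 8.53 ± 7.08 CPM for *Igf2bp3* and 1.76 ± 1.31 CPM for *Igf2bp1* (SD, n = 2 each).

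The 3 IGF2BP genes summed to 22.5 CPM in replicate 1 against 63.8 CPM in replicate 2, and *Igf2bp2* made up most of the sum in both. The ratio of *Igf2bp2* to *Igf2bp3* was 5.12 and 3.52. By CPM, *Igf2bp2* held 80.6% of their sum in replicate 1 and 74.6% in replicate 2, *Igf2bp3* 15.7% and 21.2%, and *Igf2bp1* 3.70% and 4.20%. *Malsu1*, which overlaps *Igf2bp3* on the opposite strand, had 7.95 and 7.63 CPM and did not share its difference between the libraries.

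Levels of different genes can be compared only per length, here as CPM per kilobase of annotated exons. In replicate 2 the order was *Hmga1* at 53.3, *Hmga2* at 36.4, *Igf2bp2* at 6.43, *Igf2bp3* at 1.66 and *Igf2bp1* at 0.277 CPM per kilobase. In replicate 1 *Igf2bp2* stood second at 2.44, behind *Hmga1* at 2.60 and ahead of *Hmga2* at 0.790, *Igf2bp3* at 0.433 and *Igf2bp1* at 0.0859. The step from *Igf2bp2* to *Igf2bp3*, a log2 ratio per length of 2.23 ± 0.38 (SD, n = 2), exceeded its spread between the libraries, as did that from *Igf2bp3* to *Igf2bp1* at 2.46 ± 0.18. The log2 ratio of *Hmga1* to *Hmga2* depended on the length used, at 1.13 ± 0.82 per kilobase of annotated exons, 0.39 per kilobase of the longest coding transcript and -0.54 without division by length, and *Hmga1* shares reads with *Hmga1b*. Per kilobase of the longest coding transcript *Hmga2* stood first in replicate 2, at 64.7 against 56.6 CPM for *Hmga1*, and *Igf2bp2* first in replicate 1, at 4.64 against 2.76 CPM for *Hmga1*. The order of these 3 genes is therefore not settled. *Hmga2* and *Igf2bp2* did not differ beyond their spread, with a log2 ratio per length of 0.44 ± 2.92. Annotated exons include rarely used ones, and the length a library actually holds is not known.

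**Figure D2:**
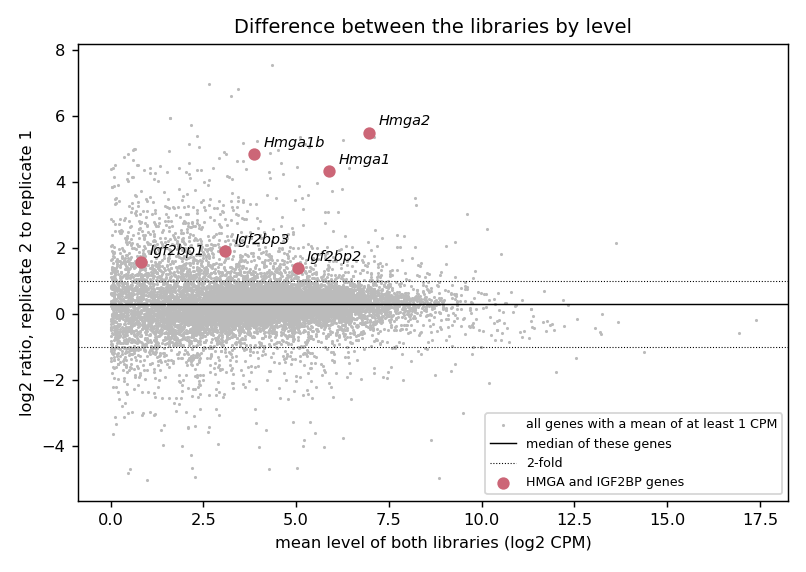
Log2 ratio of replicate 2 to replicate 1 against the mean level of both libraries (log2 CPM) for 12631 genes (grey), with the HMGA and IGF2BP genes marked and lines at the median of 0.30 and at 2-fold. *Hmga2* and *Hmga1* lie at 5.50 and 4.34, far above most genes of their level, whereas the IGF2BP genes lie between 1.39 and 1.91. The members were chosen with this contrast known.

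The genes that make and destroy let-7 had a median difference between the libraries near that of all genes. Of the 14 genes of a list for microRNA processing and let-7 turnover, 13 averaged 1 CPM or more. None of the 13 differed by more than 2-fold in either direction, where 15.1% of all genes did. With so few genes nothing is read from this count. Their median log2 ratio was 0.23, beside 0.30 over all genes, and turned to -0.06, beside 0.02, under the trimmed-mean scaling, and single genes ranged from -0.24 to 0.77. *Drosha* and *Dicer1*, the nucleases that cut the primary transcript and the precursor, had 30.9 and 36.7 CPM and 33.2 and 47.1 CPM in replicates 1 and 2. *Tut4* and *Tut7*, the terminal uridylyl transferases that act on LIN28-bound precursors, had 26.4 and 27.6 CPM and 46.4 and 59.7 CPM. *Dis3l2*, the exonuclease that degrades uridylated let-7 precursors, had 7.49 and 7.16 CPM. *Trim71*, a classical let-7 target of early embryos (LIN41) whose 3′ UTR holds 4 seed matches, was listed at 0 in both libraries. The highest log2 ratio of the list, 0.77, belonged to the Argonaute gene *Ago2*, with 44.4 and 75.5 CPM.

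Mature let-7 was not measured, since poly(A) libraries of fragmented mRNA do not hold it. The precursor genes *Mirlet7a-2* and *Mirlet7c-1* were listed at 0 in both libraries. The genes that overlap let-7 loci on the same strand did not move in a common direction. *Mir99ahg*, which covers let-7c-1, had 5.24 and 3.75 CPM, and *Lncppara*, which covers let-7b and let-7c-2, had 5.94 and 2.54 CPM. *6720427I07Rik*, which covers let-7a-1, let-7d and let-7f-1, had 1.37 and 2.20 CPM. The coding genes *Wdr82* (let-7g), *Spaca6* (let-7e) and *Huwe1* (let-7f-2 and miR-98) had log2 ratios of 0.56, 0.65 and 0.21. *D630033A02Rik*, which covers let-7i, had 0.208 and 0.569 CPM. *Mir100hg*, named for the miR-100 cluster and not placed on the annotation used here, had 31.8 and 84.2 CPM. The position of let-7a-2 was not among those searched, so whether *Mir100hg* covers it was not determined here. The level of a host gene does not give the level of its microRNA.

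Among 20 other genes widely given as let-7 targets, 17 averaged 1 CPM or more, and 6 of them were more than 2-fold higher in replicate 2 and 1 lower, with a median log2 ratio of 0.77, where 11.4% of all genes were higher and 3.71% lower. The 6 were *Arid3a*, *Plagl2*, *E2f5*, *Myc*, *Igf1r* and *Irs2*, with log2 ratios between 1.06 and 1.30, close to the 2-fold line. Under the trimmed-mean scaling 1 of the 17 was past 2-fold higher, where 7.70% of all genes were, with a median of 0.49, and under upper-quartile scaling 0 were. *Myc*, the growth-promoting transcription factor, had 15.2 and 34.3 CPM, and *Igf1r*, the receptor for IGF1, which the medium contains, had 28.3 and 61.3 CPM. *Irs2*, an adaptor of the insulin and IGF1 receptors, had the highest log2 ratio of the list with 4.21 and 10.5 CPM. *Fas*, the death receptor, was the gene lower in replicate 2, with 14.5 and 4.67 CPM. *Nr6a1*, an embryonic nuclear receptor whose 3′ UTR held 8 seed matches, the most of the genes with at least 1 CPM, had 3.19 and 3.25 CPM. *Mycn* was listed at 0 in both libraries. Not every gene of this list held the motif in its annotated 3′ UTR, since *Myc*, *Mycn*, *Hras*, *Cdk6* and *Ccnd2* had 0 matches. The genes *Nras* and *Hras* and the cell cycle genes *Cdk6*, *Ccnd2* and *Cdc25a* had log2 ratios between 0.40 and 0.95. The highest log2 ratio of this list, 1.30, was below those of all 5 measured members. The members were chosen with this contrast known, so nothing is read from that order.

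**Figure D3:**
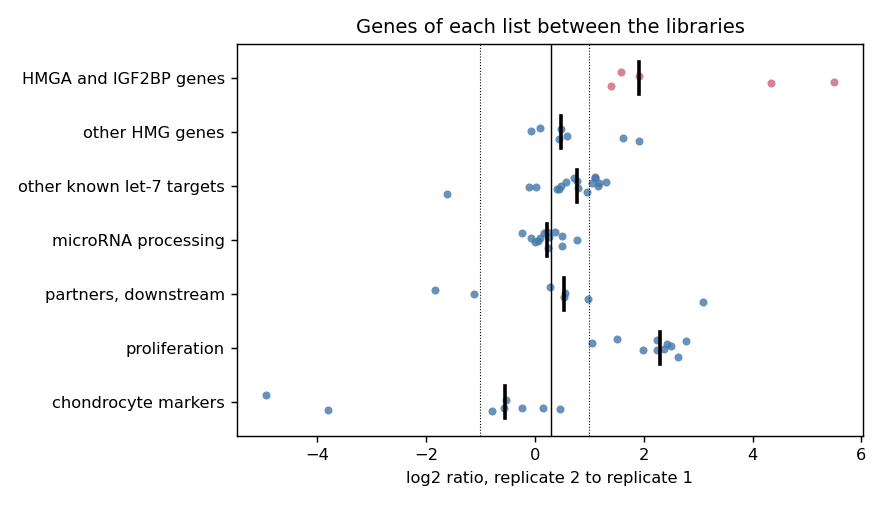
Log2 ratio of replicate 2 to replicate 1 for genes of each list averaging 1 CPM or more (points) with the list's median (thick bar), the median of all genes at 0.30 (thin line) and 2-fold (dotted lines). All 10 proliferation genes lie above 2-fold at a median of 2.31, while the 13 microRNA processing genes lie within it. Of all genes 11.4% were past 2-fold higher and 3.71% lower.

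The seed match was then set against the difference between libraries for all genes. Of 11351 genes with an annotated 3′ UTR and a mean of 1 CPM or more, 1287 held a match, and their median log2 ratio was 0.32, beside 0.31 for the 10064 genes without one. More than 2-fold higher in replicate 2 were 12.0% of genes with a match and 11.1% of genes without. The former include the measured members, chosen with this contrast known, and *Hmga1b*. Without these, 11.6% of 1281 genes with a match were higher, at a median of 0.31. The medians were 0.31, 0.35 and 0.33 for genes with 1, 2 and 3 matches, the last resting on 14 genes. Of the 8 genes with 4 or more matches, *Hmga2* and *Igf2bp1* were past 2-fold, and the other 6, among them *Nr6a1*, *Nudt12*, *Mettl6* and *Hic2*, were not and had a median of -0.05. For the 465 genes with the longer CTACCTCA match the median was 0.30. Genes with a match had longer 3′ UTRs, a median of 2659 bases against 1188 without, at a similar level of 17.0 and 18.1 CPM.

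**Figure D4:**
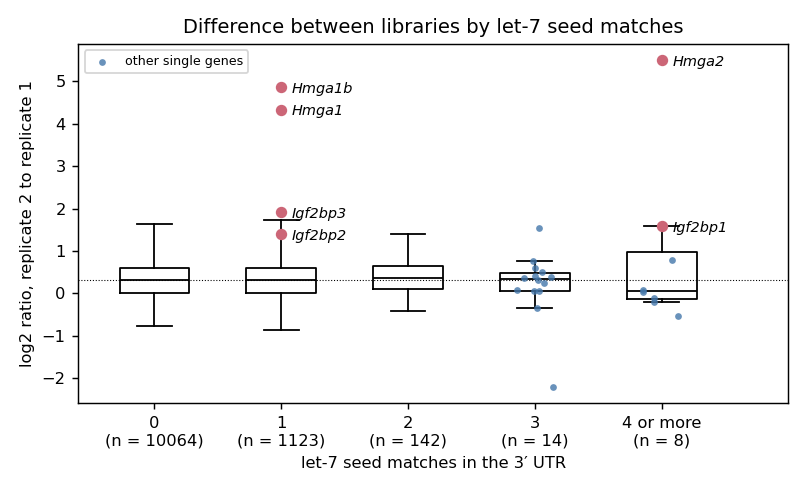
Log2 ratio of replicate 2 to replicate 1 by number of CTACCTC matches in the 3′ UTR, as boxes from the lower to the upper quartile with the median and whiskers at the 5th and 95th percentile, for 11351 genes. The boxes of 0 to 3 matches sit at nearly the same height, with medians from 0.31 to 0.35, and the HMGA and IGF2BP genes with *Hmga1b* (labelled points) lie above the boxes. Small points are the other single genes with 3 matches or with 4 or more.

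Genes known to act with HMGA and IGF2BP proteins did not share 1 direction. *Cd44*, a hyaluronan receptor whose mRNA IGF2BP proteins bind, had 14.7 CPM in replicate 1 against 126 CPM in replicate 2, an 8.56-fold difference. *Actb*, whose mRNA holds the zipcode bound by IGF2BP1, had 508 and 996 CPM, a log2 ratio of 0.97. The imprinted genes *Igf2*, the fetal growth factor for which the family is named, and *H19*, its neighbouring noncoding RNA, went the other way, at 426 and 197 CPM and at 665 and 186 CPM. *H19* was thus 3.57-fold and *Igf2* 2.17-fold higher in replicate 1. *Plag1*, a zinc-finger activator of *Igf2*, had 6.24 and 7.64 CPM. The cell cycle inhibitor genes *Cdkn2a*, which HMGA2 is known to hold down in stem cells, and *Cdkn2b* had 31.5 and 46.0 CPM and 18.3 and 27.0 CPM. Of these 7 genes 1 was past 2-fold higher and 2 lower in replicate 2, where 11.4% and 3.71% of all genes were.

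Other high mobility group genes, which encode abundant chromatin proteins of the HMGB and HMGN classes, mostly differed little, with a median log2 ratio of 0.49 over 7 genes. *Hmgb2* (2.67 and 8.36 CPM) and *Hmgb3* (2.46 and 9.55 CPM) were past 2-fold higher in replicate 2, where 11.4% of all genes were. By contrast *Hmgb1* had 31.9 and 33.96 CPM and *Hmgn3* 14.4 and 13.7 CPM. The log2 ratios of the 7 genes lay between -0.07 and 1.91, the highest being that of *Hmgb3*.

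Genes of dividing cells were also higher in replicate 2. All 10 genes of a proliferation list were past 2-fold higher in replicate 2, where 11.4% of all genes were, with a median log2 ratio of 2.31 and summed levels of 80.5 and 308 CPM. Under the trimmed-mean scaling 9 of them were. The list was written with earlier results of these data known, so nothing is read from this count. A shared direction over 2 libraries rests on a single difference. *Bub1*, at 0.947 CPM in replicate 1, passed the filter only through its level in replicate 2. *Mki67* had 8.13 and 50.8 CPM and *Top2a* 9.31 and 50.8 CPM. The ratio of *Hmga2* to *Mki67* within a library was 0.658 in replicate 1 and 4.86 in replicate 2, and that of *Hmga1* to *Mki67* 0.678 and 2.23, so both HMGA genes differed by more than this marker. *Hmga2* was chosen for its difference, so nothing is read from its place above *Mki67*. The log2 ratios of *Igf2bp1*, *Igf2bp2* and *Igf2bp3*, from 1.39 to 1.91, lay below the median of the proliferation list. The cartilage matrilins moved the opposite way, with *Matn1* at 902 and 29.2 CPM and *Matn3* at 741 and 53.1 CPM. These were the 2 of the 8 chondrocyte markers past 2-fold lower in replicate 2, where 3.71% of all genes were. The 8 fibroblast markers summed to 3172 and 1592 CPM, with *Pi16* at 0 in both libraries. Of the others, *Dcn*, *Lum*, *Col1a1*, *Col3a1* and the barely detected *Thy1* were lower in replicate 2. *Fap* (14.3 and 27.4 CPM) and *Pdgfra* (2.03 and 2.71 CPM) were higher. The 6 osteoblast and osteocyte markers summed to 5.18 and 53.5 CPM, of which *Dmp1* made up 40.4 CPM in replicate 2. The part of cell division or of other cell types in the levels of the HMGA and IGF2BP genes was not tested, and in bulk RNA more cells of a type cannot be told apart from more RNA per cell. Markers of white blood cells, erythroid cells and of pluripotent and germ cells summed to at most 2.63, 0.139 and 0.0693 CPM in either library, and most of the first sum was *Cd68* at 2.56 and 2.40 CPM.

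Of 19 genes with values whose start lies within 1 Mb of that of *Hmga2*, 10 averaged 1 CPM or more. All 10 differed less than *Hmga2*, with a median log2 ratio of 0.43 and a range from -0.57 to 2.41. Since *Hmga2* was chosen for its difference, nothing is read from that order. The closest of them on the downstream side, *Llph* and *Irak3*, had 14.04 and 16.1 CPM and 3.23 and 2.15 CPM. Upstream, *Msrb3*, a methionine sulfoxide reductase gene, had 42.5 and 70.6 CPM. Past 2-fold were *Wif1*, a secreted WNT inhibitor, with 1.64 and 7.24 CPM, and the noncoding gene *Gm15910*, with 0.254 and 1.78 CPM. Over all genes 11.4% were past 2-fold higher, and *Gm15910* entered the 10 only through its level in replicate 2. *4930471E19Rik*, the nearest of the 19 upstream, averaged under 1 CPM, with 0.0462 and 1.19 CPM, and its 2 and 50 implied reads give a 25.7-fold difference with an interval of 6.74 to 218. *Tbc1d30*, with 0.0231 and 0.403 CPM, and *Gm4473*, with 0.0231 and 0.332 CPM, also averaged under 1 CPM, and their intervals of 2.73 to 729 and 2.19 to 608 include the fold of *Hmga2*, as does that of *4930471E19Rik*.

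**Figure D5:**
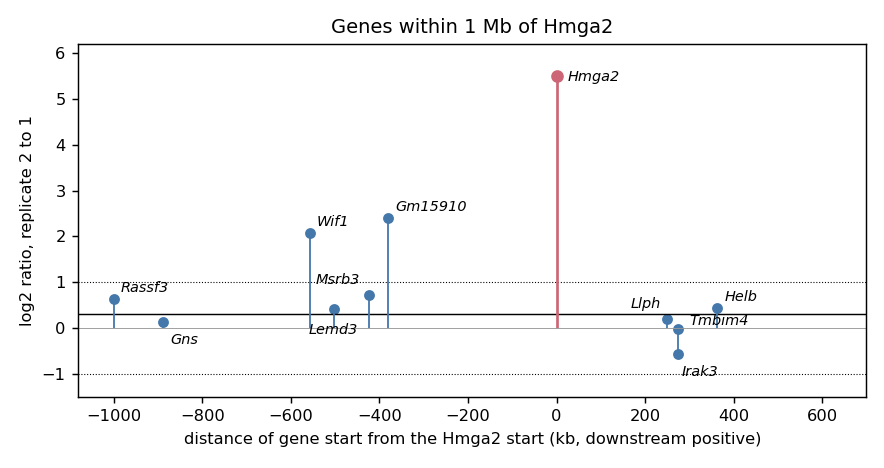
Log2 ratio of replicate 2 to replicate 1 for the 10 genes averaging 1 CPM or more that start within 1 Mb of *Hmga2*, against distance from its start in kilobases along its direction of transcription, with the median of all genes at 0.30 and 2-fold (dotted). *Hmga2* stands at 5.50, and the next highest, *Gm15910*, at 2.41.

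The genes whose log2 ratio was nearest to that of *Hmga2*, over these 2 libraries and among genes averaging 1 CPM or more, were *Tbx3*, *Tinagl1*, *Dlk1*, *Nes*, *Klhl1*, *Col18a1*, *Bmp7*, *Etv1*, *Flrt2* and *S1pr3*. Their log2 ratios lay within 0.44 of that of *Hmga2*. Of these genes *Tbx3*, *Klhl1*, *Col18a1*, *Bmp7*, *Etv1* and *S1pr3* had less than 1 CPM in replicate 1. They passed the filter only through their level in replicate 2, and *Klhl1* had 3 implied reads in replicate 1. *Dlk1*, an imprinted gene of fetal tissues and progenitors, came closest in level, with 6.38 CPM in replicate 1 against 267 CPM in replicate 2. *Nes*, which encodes the intermediate filament nestin, had 3.81 and 150 CPM, and *Bmp7*, a bone morphogenetic protein, had 0.531 and 23.1 CPM. *Tbx3*, a limb transcription factor, had 0.139 and 9.94 CPM. A likeness over 2 libraries rests on a single difference.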

How the data were processed

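The transcriptomes of *Sox9*GFPHi chondrospheres were analysed in 2 libraries. Per the labels and the study's methods, the authors aligned single-end reads of 50 bases to GRCm38 (mm10) with GENCODE M25 by STAR 2.7.3a in Partek Flow 10.0.21.0801, used Partek E/M, which can divide shared reads, to quantify genes and deposited CPM values without length correction. Whether counting used the strand is not given in the sources used here. An offset of 0.0001 CPM, present in every deposited value, was subtracted. Whole multiples (within 0.02 reads) of the implied value of 1 read made up 65.4% and 63.6% of low values, too few to recover reads, and count models were therefore not used. Intervals for folds are exact (Clopper-Pearson) on implied reads, an approximation rounded to whole numbers. They cover counting error only, not the division of shared reads. Since PCR copies are not independent molecules, they are too narrow where reads include such copies.

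Log2 ratios used a pseudocount of 0.1 CPM, and genes averaging 1 CPM or more entered the counts. With 1 condition no p-value was computed. Coordinates, lengths and 3′ UTRs (union over complete coding transcripts) came from GENCODE M21 on GRCm38, in which 22967 (97.2%) of the gene names matched 1 gene. Named genes were the members, every gene of hand-written lists, let-7 precursor and host genes, the 10 genes nearest to *Hmga2* in log2 ratio, genes within 1 Mb of it, the 10 genes with most seed matches, and copies or overlapping genes. The members and lists were chosen with earlier results of these data known. *Cd3e*, *Nanog*, *Zfp42* and *Dazl* of the marker lists were not analysed here. Of the listed let-7 targets, 2 are not reported here and were left out of the counts. Steps were tested on simulated data. Alternatives covered scaling (a trimmed mean that left out 30% of ratios and 5% of levels on each side, the upper quartile, the 10 highest genes left out), pseudocount, filter, length and each library left out. The tools were matplotlib 3.10.9, scipy 1.17.1, pandas 2.3.3, numpy 2.4.6 and Python 3.11.15.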

Additional observations from a re-analysis of the deposited data

How the results depend on the processing

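For 23 results, 109 values were recomputed under changed settings, each altering a single choice. The spread was exceeded by 9 values, 99 stayed within it (the SD between libraries, for log2 ratios of members and lists the SD over genes divided by the square root of 2, 0.59, or for counts 1.5 times), and 1 reversed. The reversed value was the log2 ratio of *Hmga1* to *Hmga2*, -0.54 without division by length, and it was 0.39 with the longest coding transcript. A change of sign counted as reversed only where the main log2 ratio passed 2-fold or, per length, exceeded its spread. Below that, the log2 ratio per length of *Hmga2* to *Igf2bp2* went from 0.44 to -1.63 without replicate 2. The median of the microRNA processing list went from 0.23 to -0.06 after the trimmed mean and -0.10 after the upper quartile. The log2 ratio per length of *Igf2bp3* to *Igf2bp1* was 3.16 with the longest coding transcript and 2.21 without division. Genes more than 2-fold higher in replicate 2 numbered 927 after upper quartile scaling, 530 at a mean of at least 10 CPM and 2817 at a mean above 0, and genes lower 732 after the trimmed mean, 776 after the upper quartile, 152 and 1538. The share of higher genes was then 54.4% after the upper quartile and 62.8% with the 10 highest genes left out. The 5 members were past 2-fold under all scalings and pseudocounts tried, although *Igf2bp1* had a log2 ratio of 1.01 with a pseudocount of 1 and *Igf2bp2* one of 1.07 after the upper quartile. The level of *Hmga2* was 247 CPM without replicate 1 and 5.35 CPM without replicate 2, and that of *Hmga1* 113 and 5.51 CPM, shifts that stay within the SD by construction. The same holds for every level and every log2 ratio per length with a library left out. Those values are among the 99 but could not have exceeded the spread. No paired analysis was possible because the libraries are of 1 group. With 1 condition, pup, culture and library preparation cannot be told apart.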
